A study of Mus musculus with 4 samples.

Results

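The 40 mitosis genes described here are a named set of mouse genes that act in G2, at the spindle, at the kinetochore and in cytokinesis. They were found in the deposited expression table by matching its Ensembl gene identifiers to GENCODE symbols, and all 40 were among its 12390 genes. The table holds 4 RNA-seq libraries of bone marrow hematopoietic stem cells, each made from about 5000 cells sorted as Lin-Sca-1+c-Kit+CD48-CD150+ and copied to cDNA with a Smart-Seq V4 ultra low input kit. The 2 control libraries (titled Ddx21_fl, genotype label WT) came from mice with floxed Ddx21, written Ddx211fl/fl in the design text. The 2 knockout libraries (titled Ddx21_CKO, genotype label KO) came from mice that carried the same floxed alleles and CAG-CreERT2, a Cre recombinase that tamoxifen activates. CAG is a promoter active in most cell types, so the Cre was not limited to blood cells. The controls carried no Cre, so the presence of CreERT2 and the loss of Ddx21 cannot be told apart. The dose and time of any Cre induction, and the age and sex of the mice, are not stated in the labels. Nothing in them ties the libraries to separate animals, so the spread between these libraries may be technical. In the fit of all 4 libraries as deposited, p-values rest on a spread fitted over all genes, not on that of each gene.

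Ddx21 is a DEAD-box RNA helicase of the nucleolus, and the comparison asks how these sorted cells differ without it. Mitotic genes are transcribed late in the cell cycle: CDK1 with cyclins A and B starts mitosis, Aurora and Polo kinases build the spindle, kinetochores attach chromosomes to it, and the anaphase-promoting complex (APC/C) then destroys cyclins and securin so that chromosomes part and the cell divides. Hematopoietic stem cells are mostly quiescent, so such transcripts in a bulk library come from the cells that are cycling. Fewer cycling cells, less RNA per cycling cell and a different mix of cell types cannot be told apart in these bulk libraries. Many promoters of G2 and M phase genes share the cell cycle genes homology region (CHR), to which the DREAM complex binds in quiescent cells and the MuvB core with Mybl2 and Foxm1 in cycling ones, and CCAAT boxes bound by NF-Y.

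The promoters below show the elements in the genes the results turn on: Ube2c, the member called lower, and Kif11 and Cks2, which with it had the lowest fold changes, beside Cdc20 and Cdk1, textbook examples of the G2 and M phase class. Each is the 150 bases before a RefSeq transcription start on the GRCm38.p6 assembly, 5′ to 3′ on the gene's strand. Capitals mark matches to CHR (TTTGAA or TTCGAA) and to CCAAT on either strand, so that TTCAAA and ATTGG are matches read on the other strand. GENCODE places some of these starts a little further upstream.
Ube2c: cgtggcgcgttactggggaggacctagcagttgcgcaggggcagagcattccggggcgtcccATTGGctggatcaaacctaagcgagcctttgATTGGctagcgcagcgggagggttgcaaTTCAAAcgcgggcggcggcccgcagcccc
Cdc20: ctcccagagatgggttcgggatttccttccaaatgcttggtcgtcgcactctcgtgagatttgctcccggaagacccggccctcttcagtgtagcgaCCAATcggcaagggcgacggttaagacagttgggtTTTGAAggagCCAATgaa
Cdk1: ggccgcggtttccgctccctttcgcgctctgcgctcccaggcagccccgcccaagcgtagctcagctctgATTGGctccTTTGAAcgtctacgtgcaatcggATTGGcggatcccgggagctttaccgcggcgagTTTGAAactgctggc
Kif11: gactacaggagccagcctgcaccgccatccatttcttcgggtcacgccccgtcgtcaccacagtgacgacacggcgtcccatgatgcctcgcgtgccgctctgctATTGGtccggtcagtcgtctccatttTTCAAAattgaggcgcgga
Cks2: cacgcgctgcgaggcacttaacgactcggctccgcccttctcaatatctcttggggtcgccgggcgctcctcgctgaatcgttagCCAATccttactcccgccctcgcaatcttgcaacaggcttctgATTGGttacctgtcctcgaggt

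Ube2c (chr2:164769779-164769928, plus strand) held 1 CHR match close to its start and 2 CCAAT matches upstream of it. Cdc20 (chr4:118437344-118437493, minus strand) had the same numbers, and Cdk1 (chr10:69352913-69353062, minus strand) held 2 of each. Kif11 (chr19:37376232-37376381, plus strand) held 1 of each. Cks2 (chr13:51645082-51645231, plus strand) held 2 CCAAT matches and no CHR match in this stretch.

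A RefSeq promoter entry, 250 bases before to 50 after the start, was found for 34 of the 40 members, and 36 promoters in all because Prc1 and Ect2 had 2 each. CHR matched in 26 of these 36 promoters (72.2%), against 6316 of the 32851 promoters in the table (19.2%). CCAAT matched in 27 (75.0%, against 37.4%), and 19 held 2 or more CCAAT matches (52.8%, against 11.7%). Both elements were present in 23 member promoters (63.9%) and in 7.52% of all promoters. In 22 of the 34 genes a CHR match began within 50 bases of the start. The 10 genes with an entry and no CHR match were Mybl2, Ccnb1, Cks2, Nek2, Mad2l1, Birc5, Cenpe, Nuf2, Nusap1 and Pttg1. A match is a string of letters in this window, and no binding was measured.

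**Figure D1:**
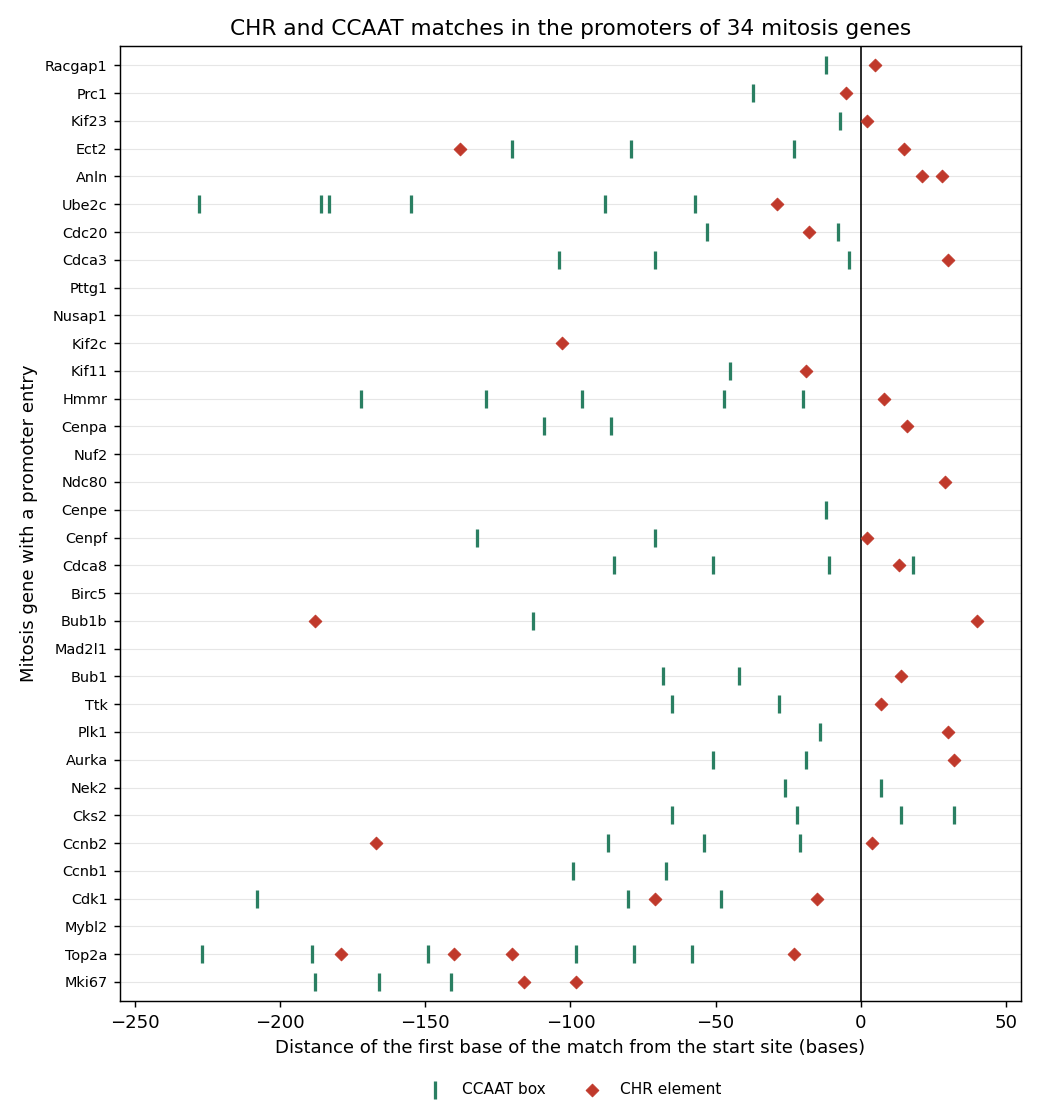
Positions of CHR (TTTGAA or TTCGAA) and CCAAT matches on either strand in the promoters of the 34 members with a RefSeq entry, by distance in bases from the transcription start (first start shown for Prc1 and Ect2). CHR matches gather near the start, within 50 bases in 22 of 34 genes, and most CCAAT matches lie upstream of the start.

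Whole reads recovered from the deposited RPKM values (reads per transcript length and library size) summed to between 43218009 and 62871440 per library, and a member held between 683 and 26228 reads in a library. Ddx21 itself (chr10:62580251-62602281, minus strand) measured 10.95 and 12.1 RPKM in control libraries 1 and 2 and 6.20 and 6.60 RPKM in knockout libraries 1 and 2. Both knockout libraries lay below both controls, at a log2 fold change of -0.76 (SE 0.30) with an adjusted p of 0.158 by limma. Its remaining reads were not assigned to floxed or unfloxed exons. In the deposited scale the median of all 11742 tested genes was 0.31 above control on the log2 scale, 0.12 in knockout library 1 and 0.50 in knockout library 2. A rescaling that sets most genes level (a trimmed mean of log ratios, TMM-type) moved that median by -0.29, to 0.02. Rescaled, the fold change of Ddx21 was -1.07 (adjusted p = 0.0956 by limma). It was -1.21 in a rescaled voom fit of the recovered reads (adjusted p = 0.0303). Values and placements of single libraries below are on the deposited scale unless they are called rescaled.

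Of the mitosis genes 1 fell, Ube2c, none rose and 39 did not pass the test in the deposited scale (limma, Benjamini-Hochberg adjusted p under 0.05 over all tested genes). Among all tested genes 0.86% were called lower and 3.33% higher. At an unadjusted p under 0.05 the same single member was lower and 0 were higher, against 2.45% and 13.8% of all genes. The median log2 fold change of the 40 genes was 0.03, with a range from -0.59 to 0.38, 24 above 0 and 16 below. Against the all-gene median of 0.31, 38 of 40 were lower, where 50% of all genes lie by construction. Pttg1 and Ttk were the exceptions.

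After the rescaling no member was called by limma (smallest adjusted p = 0.130), and 16 were lower and 0 higher at an unadjusted p under 0.05, against 7.43% and 8.46% of all genes. The voom fit of the recovered reads gave the same counts, 16 and 0 (7.6% and 9.49% of all genes), and no call either (smallest adjusted p = 0.0941). Over all genes the rescaled limma fit called 1 higher, Cdkn1a (0.00852%), and none lower, and voom called 0.435% higher and 0.187% lower. The members' median was then -0.31, with a range from -0.94 to 0.06, and 39 of 40 lay below 0, against 47.5% of all genes. Pttg1 alone lay above 0. Among all genes the rescaled share below 0 rose with mean level. It was 43.6% between 5 and 20 RPKM, 70.3% between 20 and 60 RPKM and 92.7% at 60 RPKM and over. The members of these classes stood at 94.1%, 100% and 100%.

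**Figure D2:**
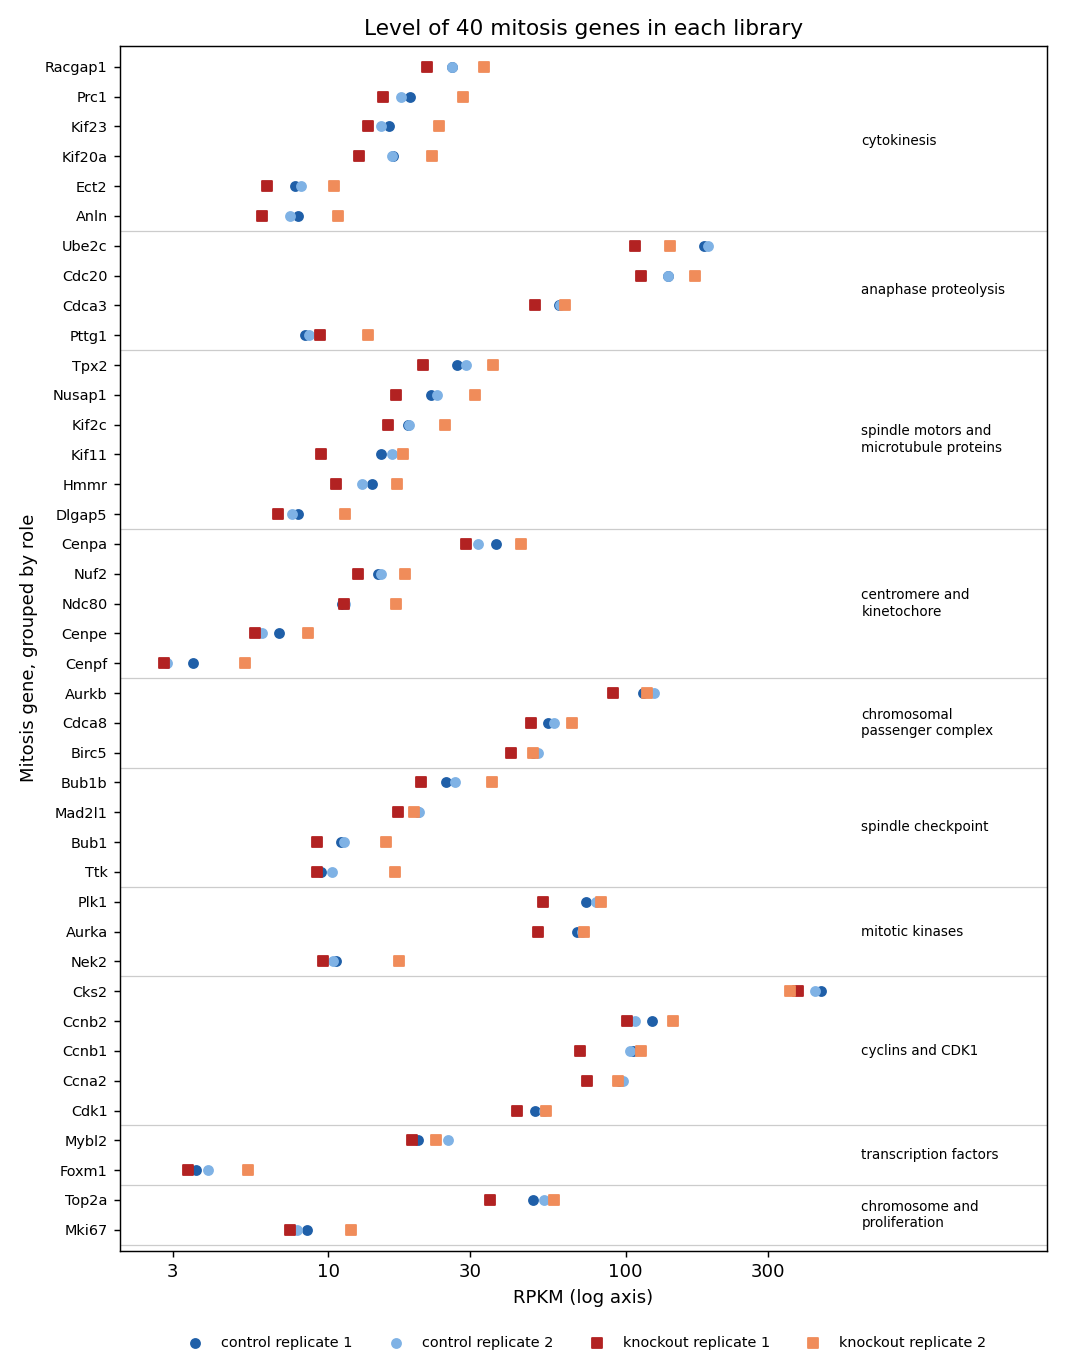
RPKM of each of the 40 mitosis genes in the 4 libraries, on a log axis, ordered by role, with 1 point for each library. Ube2c has both knockout points well below both control points, while for most other genes the control points lie between the points of the knockout libraries.

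Ube2c is the E2 enzyme with which the APC/C adds ubiquitin to its substrates, and it was the second most abundant of the 40 after Cks2. The gene lies on the plus strand at chr2:164769898-164778822. It measured 184 and 189 RPKM in the controls and 108 and 141 RPKM in knockout libraries 1 and 2, so that both knockout libraries were below both controls. The means were 187 ± 4.04 and 124 ± 23.2 RPKM (SD, n = 2 each), which gave a log2 fold change of -0.59 with an SE of 0.17 and an adjusted p of 0.0170. The rescaled fold change was -0.94, with an adjusted p of 0.130. With a single control library the fold change was -0.62 (without control library 1) and -0.57 (without control library 2), and the call was lost (adjusted p = 0.932 and 0.957), in fits that called few genes in all: 37 higher and 5 lower, and 27 higher and 9 lower. An exon of Ube2c overlaps one of Tnnc2 on the other strand, Tnnc2 was not analysed here, and no source used here says whether the counting used strand.

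Other genes of anaphase proteolysis did not share its values. Cdc20, which activates the APC/C, measured 139 and 138 RPKM in the controls and 112 and 172 RPKM in the knockouts, 1 knockout library below and 1 above both controls (0.00, rescaled -0.35). Pttg1, the securin that restrains separase, had the highest fold change of the 40. Its values were 8.38 and 8.61 RPKM in the controls and 9.41 and 13.6 RPKM in the knockouts. Both knockout libraries lay above both controls, at 0.38 (SE 0.29, adjusted p = 0.443) in the deposited and 0.06 in the rescaled scale. Cdca3, a trigger of mitotic entry, had a fold change of -0.10 (rescaled -0.45).

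Among the CDK1 genes the abundant Cks2, a small CDK-binding protein, had the next lowest fold change. Cks2 measured 454 and 434 RPKM in the controls and 379 and 357 RPKM in the knockouts (log2 fold change -0.27, SE 0.16, adjusted p = 0.368). The groups did not overlap, and Cks2 was the one member lower in knockout library 2 than in knockout library 1. Ccna2 (cyclin A) stood at 94.8 and 98.4 RPKM in the controls and 73.9 and 94.2 RPKM in the knockouts, also without overlap (-0.21 and, rescaled, -0.56). Ccnb1 and Ccnb2 (cyclin B) and Cdk1 had fold changes of -0.23, 0.07 and -0.09 (rescaled -0.58, -0.28 and -0.44), and in each the control values lay between the knockout libraries. The median of the 5 genes was -0.21, and -0.56 after rescaling.

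The mitotic kinases gave similar medians, -0.20 and -0.55 rescaled. Plk1, which acts from centrosome maturation to cytokinesis, measured 73.5 and 79.3 RPKM in the controls and 52.8 and 82.9 RPKM in the knockouts. Aurka, the spindle pole kinase, followed it at 68.5 and 71.6 RPKM against 50.9 and 72.7 RPKM. Nek2, which separates centrosomes, had a knockout mean above its control mean: it measured 10.6 and 10.3 RPKM in the controls and 9.61 and 17.3 RPKM in the knockouts (0.28, rescaled -0.05). In all 3 kinases knockout library 1 was below and knockout library 2 above both controls.

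Aurkb, the kinase of the chromosomal passenger complex, which corrects chromosome attachment, measured 114 and 124 RPKM in the controls and 91.0 and 118 RPKM in the knockouts (-0.20, SE 0.17, adjusted p = 0.487). Its partner Birc5 (survivin) had 48.9 and 50.7 RPKM against 41.1 and 48.7 RPKM, groups that did not overlap. The passenger Cdca8 (borealin) stood at a fold change of 0.00 (rescaled -0.34). The median of the 3 was -0.15, and -0.50 rescaled.

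In the spindle checkpoint, which holds back the APC/C until chromosomes are attached, the median was 0.08 (rescaled -0.25). Bub1b measured 24.8 and 26.6 RPKM in the controls and 20.6 and 35.5 RPKM in the knockouts. The kinase Ttk had 9.44 and 10.3 RPKM against 9.18 and 16.8 RPKM, at 0.31 (SE 0.28, adjusted p = 0.492). Ttk and the kinase Bub1 had, like Bub1b, knockout values on either side of the controls. Mad2l1 was the checkpoint gene whose groups did not overlap, with 20.01 and 20.2 RPKM in the controls and 17.2 and 19.4 RPKM in the knockouts.

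Kinetochore and centromere genes had the highest role median, 0.11, which was -0.20 after rescaling. Cenpa, the histone H3 variant that marks centromeres, measured 36.7 and 31.8 RPKM in the controls and 29.0 and 44.5 RPKM in the knockouts. The kinetochore proteins Cenpe and Cenpf and the microtubule-binding pair Ndc80 and Nuf2 had fold changes between 0.02 and 0.27, and between -0.31 and -0.05 rescaled. Ndc80 was the one member with knockout library 1 between the controls.

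Kif11, the motor that pushes spindle poles apart, had the largest gap between the knockout libraries of all 40. It measured 15.1 and 16.4 RPKM in the controls and 9.45 and 17.9 RPKM in the knockouts, for which the fold change of -0.25 (SE 0.26, adjusted p = 0.535) came to -0.68 in knockout library 1 and 0.18 in knockout library 2. Among the other spindle proteins, Tpx2, which activates Aurka, had 27.2 and 29.0 RPKM against 20.9 and 35.7 RPKM. Nusap1, a microtubule bundler, had 22.1 and 23.2 RPKM against 16.9 and 31.1 RPKM. Both had knockout values on either side of the controls, as did the depolymerase Kif2c and the spindle proteins Hmmr and Dlgap5. The median of the 6 genes was 0.01, and -0.32 rescaled.

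Cytokinesis genes followed the same order of libraries. Prc1, which bundles the central spindle, measured 18.8 and 17.5 RPKM in the controls and 15.3 and 28.4 RPKM in the knockouts. Racgap1, which with the motor Kif23 forms centralspindlin, had 26.1 and 26.0 RPKM against 21.4 and 33.5 RPKM. All 6 genes, which include the motor Kif20a, the exchange factor Ect2 and the ring scaffold Anln, had knockout library 1 below and knockout library 2 above both controls. Their median was 0.05, and -0.27 rescaled.

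Top2a, which untangles sister chromatids, and the proliferation marker Mki67 had fold changes of -0.18 and 0.19 (rescaled -0.52 and -0.13). Top2a measured 48.7 and 53.0 RPKM in the controls and 34.9 and 57.4 RPKM in the knockouts, and Mki67 8.48 and 7.84 RPKM against 7.44 and 11.9 RPKM. Of the transcription factors of G2 genes, Mybl2 had 20.01 and 25.3 RPKM against 19.2 and 23.1 RPKM, and Foxm1 3.59 and 3.95 RPKM against 3.37 and 5.38 RPKM. In none of the 4 were the groups apart in the deposited scale.

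The knockout libraries placed the set differently. Knockout library 1 was below both controls for 38 of the 40 members, against 19.0% of all tested genes, and above both for Pttg1 alone, against 58.9%. Knockout library 2 was above both controls for 33 members (81.3% of all genes) and below both for 5 (12.5%). The members' median against the control mean was -0.25 on the log2 scale in knockout library 1, with a range from -0.78 to 0.13, and 0.34 in knockout library 2, with a range from -0.40 to 0.71. All-gene medians in these libraries were 0.12 and 0.50. Of the 40, 39 were higher in knockout library 2 than in knockout library 1, by a median ratio of 1.57, and the ratio over all tested genes was 1.35. Between the control libraries the median ratio of the higher to the lower value was 1.05 and the largest 1.27.

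After rescaling the knockout libraries lay closer together, with member medians of -0.39 and -0.20 and all-gene medians of 0.00 and 0.04. Knockout library 1 was then below both controls for 39 members and knockout library 2 for 30, against 36.5% and 37.5% of all genes. Above both controls were 0 members in knockout library 1 and 6 in knockout library 2, against 36.9% and 45.1%. The groups did not overlap, with the knockouts below, for 30 members, against 25.7% of genes. In the deposited scale this held for 5 members (Ccna2, Cks2, Mad2l1, Birc5 and Ube2c), against 7.38%, and Pttg1 was the one with the knockouts above, against 55.5%. The 10 genes that overlapped on the rescaled scale were Mki67, Foxm1, Nek2, Ttk, Cenpf, Ndc80, Dlgap5, Pttg1, Prc1 and Kif23. With 2 libraries a group an exact two-sided permutation test of a single gene cannot give a p below 0.333.

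**Figure D3:**
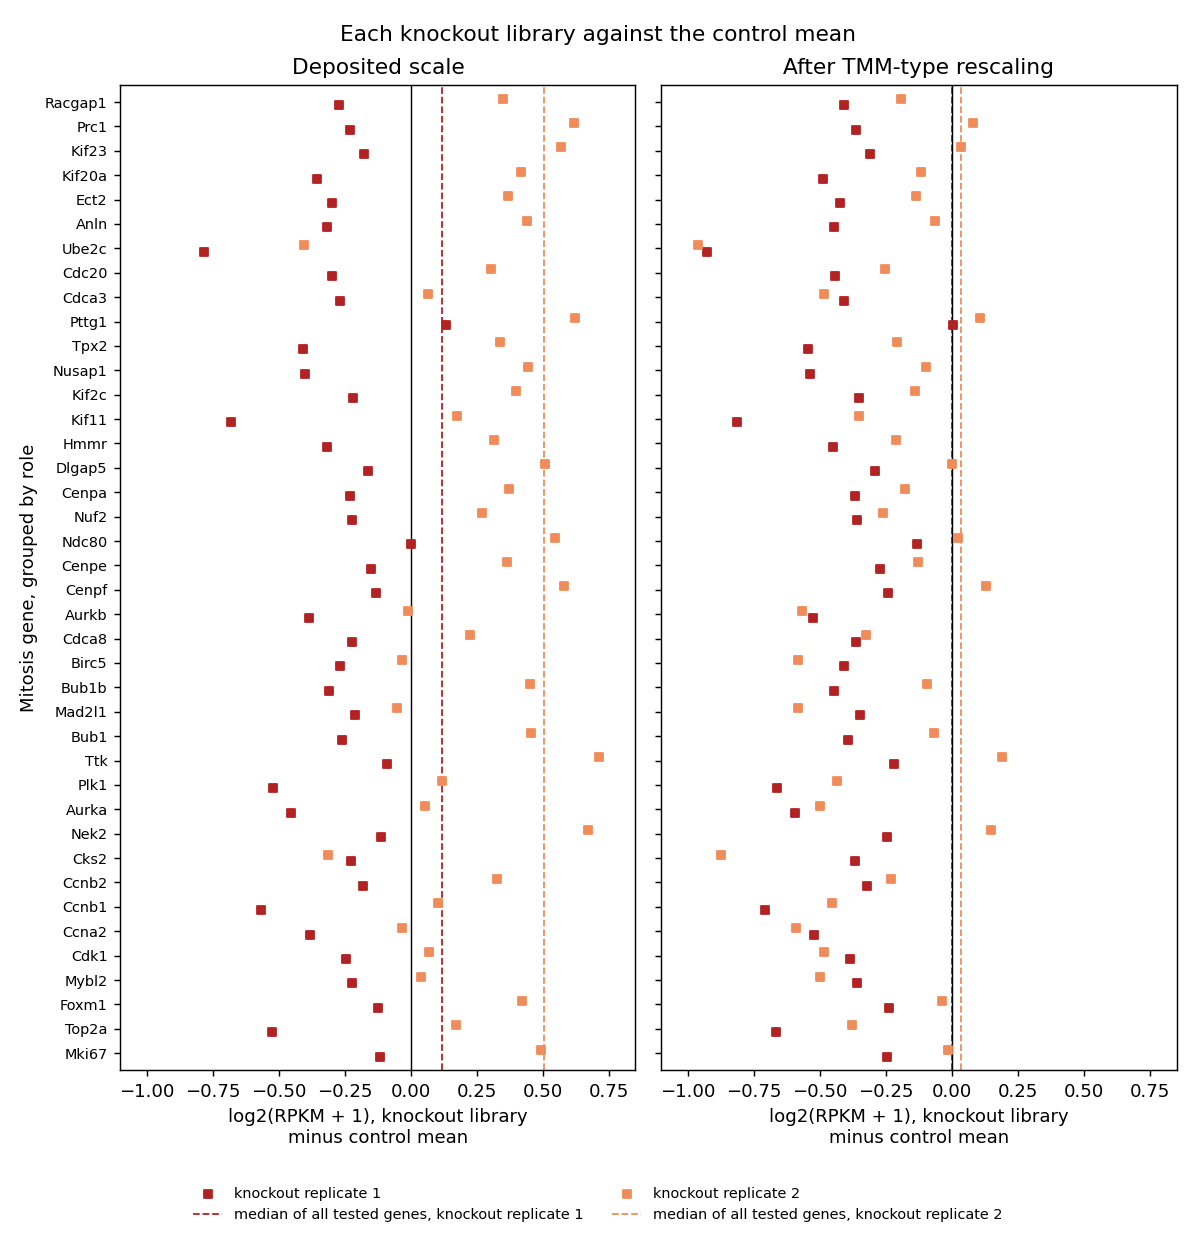
Difference of each knockout library from the control mean, in log2(RPKM + 1), for the 40 mitosis genes on the deposited scale and after the TMM-type rescaling; dashed lines are the medians of all tested genes. The points of knockout library 1 lie mostly below 0 on both scales, around medians of -0.25 and -0.39, while those of knockout library 2 lie mostly above 0 on the deposited scale (median 0.34) and mostly below it after rescaling (-0.20).

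Leaving knockout library 1 out, 15 members were called higher and 2 lower (Ube2c and Cks2), where 54.3% and 4.48% of all genes were called. Kif2c, Kif20a, Anln, Nusap1, Bub1, Bub1b, Dlgap5, Mki67, Kif23, Prc1, Ndc80, Cenpf, Nek2, Ttk and Pttg1 made up the 15. Leaving knockout library 2 out, Ube2c alone was called, lower, where 0.111% of all genes were called lower and 0.818% higher. No member was called without control library 1 (0.0426% of all genes lower and 0.315% higher) or without control library 2 (0.0766% and 0.23%). In these fits a lone library is assumed to vary as the other group does. As a share of all reads the 40 genes held 0.479% and 0.486% in the controls and 0.377% and 0.540% in knockout libraries 1 and 2, which became 0.530%, 0.561%, 0.386% and 0.413% with the rescaled totals. The knockout library that stood above the controls in the deposited share was below them in the rescaled share.

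Fold changes varied with level, among members and among all genes. Mean levels ran from 3.60 RPKM (Cenpf) to 406 RPKM (Cks2), with a median of 20.96 RPKM. Genes were split at 5, 20 and 60 RPKM of their mean over all libraries. For the 17 members between 5 and 20 RPKM the median in knockout library 1 was -0.21, against 0.14 for all 3825 genes of that level, and in knockout library 2 it was 0.44 against 0.57. The 12 members between 20 and 60 RPKM stood at -0.27 against 0.09 and at 0.28 against 0.38. For the 9 members of at least 60 RPKM the medians were -0.39 against -0.01 in knockout library 1 and 0.05 against -0.07 in knockout library 2. In knockout library 1 the members were below genes of like level in each class, and in knockout library 2 this did not hold for the most abundant ones. Of the 2 members under 5 RPKM, Foxm1 and Cenpf, the median was -0.13 against 0.15 and 0.50 against 0.55.

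**Figure D4:**
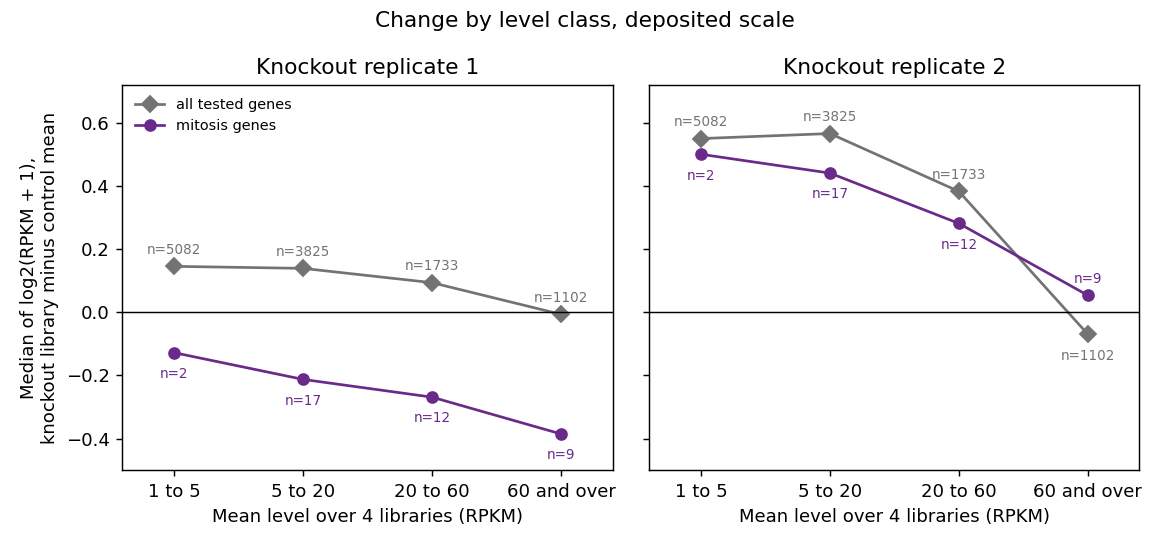
Median log2 difference of each knockout library from the control mean by class of mean level (1 to 5, 5 to 20, 20 to 60 and at least 60 RPKM), for the mitosis genes and for all tested genes, on the deposited scale. Medians of the members are below those of all genes in every class of knockout library 1, and in knockout library 2 in every class but the most abundant, where they are 0.05 and -0.07.

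Other genes of cell division were read from 6 further lists, which held 115 tested genes: 1 was called higher, 0 lower, and their median was 0.22 (rescaled -0.09), with 0.31 for all genes (0.02). Of the 6 lists condensin, which compacts mitotic chromosomes, had the median nearest to the 40, at 0.13 over 8 tested genes (rescaled -0.20). In knockout library 1, 6 of the 8 were below both controls, against 19.0% of all genes. In knockout library 2, 6 were above both, against 81.3% of all genes. After rescaling 8 of 8 were below both controls in each knockout library. Of the 40 this held for 39 and 30, and of all genes for 36.5% and 37.5%. The 13 mitotic entry genes had 0.19 and -0.15, with Cks1b, the paralog of Cks2, at 408 and 409 RPKM in the controls and 358 and 316 RPKM in the knockouts (-0.28, adjusted p = 0.358). Subunits of the APC/C, the complex that Ube2c and Cdc20 serve, had a median of 0.32 over 16 genes, and 2 were below both controls in knockout library 1. For these subunits the rescaled median was 0.00. Further kinetochore genes (35) had a median of 0.24 (rescaled -0.06) and cohesin genes (14), which hold sister chromatids together, 0.29 (rescaled -0.01), none called. Below both controls in knockout library 1 were 14 of 35 further kinetochore, 7 of 14 cohesin and 6 of 13 mitotic entry genes, against 19.0% of all genes. After rescaling these counts were 23, 10 and 11, against 36.5% of all genes.

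The called gene was Gtse1, which encodes a microtubule-binding protein of S and G2 phase and is a known p53 target in the mouse. It was 1 of 29 tested genes of the further spindle and cytokinesis list, whose median was 0.16 (rescaled -0.12). In that list 19 genes were below both controls in knockout library 1, and 24 after rescaling, against 19.0% and 36.5% of all genes. Gtse1 measured 9.35 and 10.7 RPKM in the controls and 16.2 and 36.5 RPKM in the knockouts, both above both controls. Its log2 fold change was 1.21 (SE 0.25, adjusted p = 1.55e-04), and 0.88 with an adjusted p of 0.209 after rescaling. The fold change was 1.12 without control library 1 (adjusted p = 0.932), 1.30 without control library 2 (0.576) and 0.65 without knockout library 2 (0.179), and the call was lost in each. Cdkn1a, which encodes the CDK inhibitor p21, measured 2.61 and 2.10 RPKM in the controls and 31.5 and 64.3 RPKM in the knockouts. Its fold change was 3.78 (SE 0.28, adjusted p = 2.46e-39), and 3.49 after rescaling (adjusted p = 0.0436). The p-values of Gtse1 and Cdkn1a from all libraries on the deposited scale leave out the wide gap between their own knockout libraries.

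Genes of the G1 to S transition lay near the all-gene median in knockout library 1 and below it in knockout library 2. The 26 genes, none called, had a median of 0.12 (rescaled -0.23), with 0.09 in knockout library 1 and 0.12 in knockout library 2. On the deposited scale 3 of them were below both controls in knockout library 1, where 38 of 40 mitosis genes were. After rescaling 12 of 26 were below in knockout library 1, where 39 of 40 mitosis genes and 36.5% of all genes were, and 22 in knockout library 2, where 30 of 40 mitosis genes and 37.5% of all genes were. On the deposited scale knockout library 2 was above both controls for 13 of the 26 and below both for 8. The shares of all genes were 81.3% and 12.5%. Ccnd2, with the smallest p, measured 44.3 and 45.9 RPKM in the controls and 50.1 and 69.6 RPKM in the knockouts. Its knockout libraries were both above both controls (0.38, rescaled 0.04). Mcm6, a subunit of the replicative helicase, measured 175 and 180 RPKM in the controls and 190 and 158 RPKM in the knockouts. The replication clamp Pcna had 359 and 383 RPKM against 441 and 341 RPKM. Mcm6 and Pcna, chosen after their values were seen, were among the 8 of 26 below both controls in knockout library 2. The list had a higher median level (55.7 RPKM) than the 40 mitosis genes, and the difference between the lists was not tested. Among all genes the placement of knockout library 2 varied with level. Between 20 and 60 RPKM, 83.1% were above both controls and 10.2% below, with 63.1% below after rescaling. At 60 RPKM and over these shares were 36.2%, 49.8% and 91.4%. The all-gene medians of these 2 classes in knockout library 2 were 0.38 and -0.07.

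**Figure D5:**
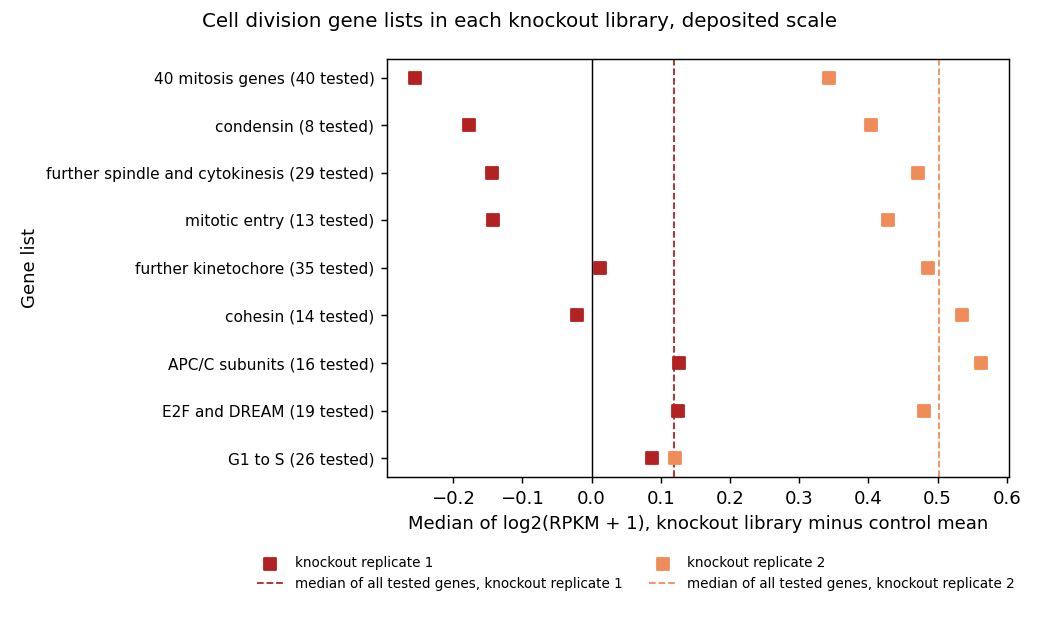
Median log2 difference of knockout library 1 and knockout library 2 from the control mean, deposited scale, for the 40 mitosis genes and the other lists of cell division genes, with the medians of all tested genes as dashed lines. The mitosis genes have the lowest median of these lists in knockout library 1 (-0.25), and the G1 to S genes the lowest in knockout library 2 (0.12). The lists were not matched for level.

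Markers of other cells in or beside the sort moved with the groups on the deposited scale, on which the calls below were made; after rescaling limma called none of these genes. The rescaled medians remained apart from 0: -1.11 for myeloid progenitor granules (deposited -0.76), -1.34 for neutrophil genes (-0.99) and 2.76 for stroma and bone (3.08). Genes of myeloid progenitor granules were called lower in 5 of 5, with a summed level of 44969 and 47191 RPKM in the controls and 33489 and 22203 RPKM in the knockouts. Neutrophil genes were called lower in 9 of 9, from 25507 and 25701 RPKM to 16134 and 9915 RPKM. Stroma and bone genes were called higher in 8 of 9, at 457 and 268 RPKM against 6334 and 1600 RPKM, and Cxcl12, Lepr and Cdh5 were not analysed here. The sort gate's own genes (Ly6a, Kit, Slamf1 and Cd48) summed to less, at 168 and 196 RPKM in the controls and 223 and 272 RPKM in the knockouts, 0 of 4 called. Cd48, against which the cells were sorted, measured 30.4 and 20.7 RPKM in the controls and 23.8 and 32.4 RPKM in the knockouts.

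Procr, a surface marker of stem cells, was called higher, at 4.46 and 4.45 RPKM in the controls and 7.998 and 12.2 RPKM in the knockouts (adjusted p = 0.0413, and a rescaled fold change of 0.69). Megakaryocyte genes were called higher in 3 of 5, at 375 and 339 against 486 and 773 RPKM, and erythroid genes in 1 of 10, at 2036 and 1145 against 2088 and 1593 RPKM. Of T and NK cell genes only Nkg7 was tested, and it was called lower; Cd3e, Cd3d and Cd8a were not analysed here. B cell genes summed to 22.8 and 18.6 RPKM against 28.0 and 40.3 RPKM, 0 of 3 called, with Pax5 and Ebf1 not analysed here. The granule and neutrophil sums put knockout library 2 farther from the controls than knockout library 1, and the stroma and bone sum put knockout library 1 farther. The 13 mitochondrially encoded genes, a sign of RNA quality, held 3.06% and 2.98% of reads in the controls and 2.86% and 2.32% in the knockouts. None was called, with a median of -0.21 (rescaled -0.56). In knockout library 2, 11 were below both controls, against 12.5% of all genes and 49.8% of genes of at least 60 RPKM. The lowest of the 13 had a mean of 68.5 RPKM, and the median of all genes of at least 60 RPKM was -0.03 (rescaled -0.38). The part of these genes and cell types in the values of the mitosis genes was not tested.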

How the data were processed

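RNA was measured in 4 libraries, 2 per group, assigned to groups from their titles and to columns from their library names. The 40 members and all lists were chosen with earlier results of these data known. The authors deposited 1 table of values per gene and library on the mm10 build, per the submitters' processing notes; the unit is not named there and was read from the values. Each deposited value times the longest GENCODE M21 transcript length gave whole reads within 0.1 for 99.4% of values. The unit was therefore taken as RPKM, although counts of fragments would give whole numbers too. For aligner, counter and strand setting the sources used here give nothing. Genes without reads stand at 0.001 RPKM in the deposited table, whose lowest maximum over the libraries is 1.0063 RPKM: genes that were low throughout are absent.

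The 11742 genes whose mean reached 1 RPKM were tested on log2(RPKM + 1) with limma 3.58.1 in R 4.3.3, with a variance trend and genotype as its term. Fold changes are knockout minus control on this scale, which understates low genes, and adjusted p-values under 0.05 were called. The prior degrees of freedom were infinite, so the trend replaced each gene's own spread, over 2 residual degrees of freedom, which makes p-values too small for genes with distant replicates. The rescaling factors were 0.904, 0.867, 0.977 and 1.31 for control libraries 1 and 2 and knockout libraries 1 and 2. Replicates differed by more than sampling noise (chi-square per degree of freedom 48.1 and 149.5). Values in every library are given for called members and the most abundant of each of 10 roles. They are also given for the 3 highest and 3 lowest fold changes and the 3 largest gaps between knockout libraries. In each other cell cycle list the rule took called genes or the smallest p. Of these Gtse1, Cks1b, Ccnd2 and Cdkn1a have values in every library, and Ncaph2, Nipbl, Anapc16, Zwint and Tfdp2 do not. Further members and genes named with values (Cdc20, Ccna2, Aurka, Birc5, Mad2l1, Mki67, Foxm1, Mcm6, Pcna, Cd48, Procr) were chosen after their values were seen. Exons of 11 members overlap another gene, in 6 cases a listed one. Promoters are RefSeq's, matched by symbol. The stem cell marker list as a whole is not reported here.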

Additional observations from a re-analysis of the deposited data

How the results depend on the processing

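Alternatives changed 1 choice at a time, except voom on recovered reads, which was also rescaled, and the rescaled fits without a library, which were added after seeing the data. Of 337 values of single genes under an alternative, 269 kept direction and call, 39 changed sign, 16 became calls and 13 lost theirs. All genes called higher and lower numbered 391 and 101; after rescaling 1 and 0, with voom and rescaling 51 and 22, with quantile scaling 0 and 0, for genes of at least 5 RPKM 235 and 93, with no variance trend 373 and 52. Leaving out a library gave 27 to 6381 higher and 5 to 526 lower, and on the rescaled scale, without control libraries 1 and 2 and knockout libraries 1 and 2 in turn, 2, 2, 162 and 0 higher and 2, 3, 812 and 0 lower. The all-gene median of 0.31 became 0.0169 rescaled, 0.0248 with voom and 0.0141 with quantile scaling, 0.12 to 0.50 without a library and, rescaled without each library in that order, 0.0138, 0.00982, 0.0358 and 0.00198. The number of members called lower, 1, was 0 after rescaling, with voom, with quantile scaling and with no variance trend, and 0 to 2 without a library on either scale; the number called higher, 0, ranged from 0 to 15 without a library. The members' median, 0.03, became -0.31 rescaled, -0.33 with voom and -0.23 with quantile scaling, -0.25 to 0.34 without a library and -0.34, -0.28, -0.20 and -0.39 rescaled without each library in that order. Ube2c had adjusted p-values of 0.247 with quantile scaling and 0.233 with no variance trend, and from 0.0264 to 0.957 without a library.

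Of the 24 members above 0 on the deposited scale 23 were below 0 after rescaling. Among the genes named by rule, those that turned negative under rescaling, quantile scaling and voom, in that order, were Bub1b (-0.27, -0.17, -0.29), Cenpa (-0.27, -0.15, -0.29), Nek2 (-0.0481, -0.0323, -0.0435), Nusap1 (-0.32, -0.23, -0.34), Prc1 (-0.14, -0.0688, -0.16), Racgap1 (-0.30, -0.21, -0.32) and Ttk (-0.0159, -0.0058, -0.0049), and Ncaph2 of condensin under rescaling and voom (-0.14, -0.13). For 32 members the knockout libraries gave opposite signs against the controls. Among those named by rule, the sign without a library depended on which was left out for Bub1b (-0.31 to 0.45), Cenpa (-0.23 to 0.37), Kif11 (-0.68 to 0.18), Mybl2 (-0.25 to 0.0700), Nek2 (-0.11 to 0.67), Nusap1 (-0.40 to 0.44), Plk1 (-0.52 to 0.12), Prc1 (-0.23 to 0.62), Racgap1 (-0.27 to 0.35), Top2a (-0.53 to 0.17), Tpx2 (-0.41 to 0.34) and Ttk (-0.0911 to 0.71). The cause was not tested. The control and knockout libraries share only numbers: their deviations correlated at 0.0668 over 11742 genes (0.0377 rescaled), and with the replicate block 175 genes were called higher and 64 lower, with Ube2c the 1 member called (adjusted p = 0.0456). Each member had at least 683 reads in each library; amplified reads are not independent molecules, so neither this depth nor the comparison of replicates by chi-square covers the sampling of molecules, and 2 libraries a group limit the precision.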

Other observations

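Regulators of the mitosis genes outside the 40 were also measured. Of 19 tested E2F and DREAM genes none was called, at a median of 0.27 (rescaled -0.03) and with 18 of 19 above both controls in knockout library 2, against 81.3% of all genes (8 of 19 below both after rescaling, against 37.5%). Tfdp2, a dimer partner of E2F factors, had the smallest p of them (fold change 0.70, not called). Of the CDK inhibitors 5 were tested and Cdkn1a was the 1 called; Cdkn2a and Cdkn2b were not analysed here.

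Across the 40 members the log2 fold change and the mean level had a Spearman correlation of -0.707 (-0.546 in knockout library 1 and -0.705 in knockout library 2), and across all tested genes -0.232. The differences of the members in knockout library 1 and knockout library 2 correlated at 0.56. These are descriptions over genes that share the same 4 libraries, and the differences share their controls.

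The 24 members with a CHR match in a promoter had a median fold change of 0.05 (rescaled -0.28), and the 10 with a promoter and no match -0.04 (rescaled -0.37). The ranges were -0.59 to 0.31 and -0.27 to 0.38, and the difference was not tested.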
